A study of Arabidopsis thaliana with 12 samples.

Results

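Transcripts of 9 Arabidopsis genes that are commonly read as markers of sugar starvation were followed in leaves of wild-type and *camta3-D* plants given bacterial elicitors. The genes are *ASN1* (AT3G47340), *BCAT2* (AT1G10070), *SEN1* (AT4G35770), *DIN10* (AT5G20250), *bZIP1* (AT5G49450), *TPS8* (AT1G70290), *TPS9* (AT1G23870), *TPS10* (AT1G60140) and *TPS11* (AT2G18700). They are 9 of the 32678 genes in the deposited count table and were taken by locus identifier. The set was chosen by the counts after AvrRps4, in which the *ASN1* transcript was higher in *camta3-D* than in wild-type leaves, so that contrast is described here without a test. The contrasts after flg22 and AvrRpm1 are not part of that rule and were tested.

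All 12 RNA-seq libraries were made from polyadenylated RNA of leaves of 4-week-old plants, syringe-infiltrated, with 6 leaf discs from 6 plants in each sample. Wild-type plants were Col-0, and *camta3-D* plants carry the dominant *sr1-4D* allele of *CAMTA3*, a calmodulin-binding transcription activator, so that a single mutant line stands for the genotype. Each genotype was sampled 1 h after 100 nM flg22, a peptide of bacterial flagellin, 4 h after *Pseudomonas syringae* pv. *tomato* (*Pst*) DC3000 delivering AvrRpm1, and 4 h after *Pst* DC3000 delivering AvrRps4, both strains at an OD600 of 0.001. That gave 6 groups of 2 libraries, with no water-infiltrated or untreated library among them. The study describes the flg22 and AvrRpm1 data as coming from independent experiments, but the labels do not say which replicate belongs to which, and nothing of the kind was found for AvrRps4. The p-values reflect how far these samples spread, which may be in part technical. Levels are given as CPM, the read count of a gene scaled to a common library size after correction for library composition, and every mean is over n = 2 libraries with its SD.

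When leaves run short of sugar, in extended darkness for example, the kinase SnRK1 becomes active and transcription factors of the bZIP C and S1 groups raise genes that recover carbon and nitrogen from stores. *ASN1*, also known as *DIN6*, encodes the glutamine-dependent asparagine synthetase that packs nitrogen into a carbon-sparing transport form, and it is among the most widely used reporters of this programme. Feeding sucrose or glucose represses these genes. The class II trehalose-6-phosphate synthase family members *TPS8* to *TPS11* belong to the same sugar-responsive group, and trehalose-6-phosphate itself is a sugar signal that inhibits SnRK1.

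The 250 bases upstream of the annotated start of 3 of the genes are shown. *ASN1* was taken because its level moved over the widest range of the well-counted genes, a range that includes the group behind the choice. *SEN1* was taken because it differed between genotypes in both tested treatments, and *TPS11* because it carries 2 of the motifs searched. They come from the RefSeq assembly TAIR10.1, as do all coordinates here. Capitals mark the G-box CACGTG, the TATCCA element or the CGCG form of the CAMTA core, and each sequence reads 5′ to 3′ on the strand of its gene.
*ASN1* (chr3:17441432-17441681, minus strand): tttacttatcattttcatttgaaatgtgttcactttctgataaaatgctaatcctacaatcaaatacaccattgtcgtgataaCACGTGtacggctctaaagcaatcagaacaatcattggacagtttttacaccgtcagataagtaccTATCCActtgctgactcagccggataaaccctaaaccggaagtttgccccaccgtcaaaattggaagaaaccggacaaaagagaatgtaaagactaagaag
*SEN1* (chr4:16944628-16944877, plus strand): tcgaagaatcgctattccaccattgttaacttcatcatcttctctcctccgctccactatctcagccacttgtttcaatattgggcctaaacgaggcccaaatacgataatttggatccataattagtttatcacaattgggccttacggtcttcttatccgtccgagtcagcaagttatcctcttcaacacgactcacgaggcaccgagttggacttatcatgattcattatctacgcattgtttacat
*TPS11* (chr2:8108648-8108897, plus strand): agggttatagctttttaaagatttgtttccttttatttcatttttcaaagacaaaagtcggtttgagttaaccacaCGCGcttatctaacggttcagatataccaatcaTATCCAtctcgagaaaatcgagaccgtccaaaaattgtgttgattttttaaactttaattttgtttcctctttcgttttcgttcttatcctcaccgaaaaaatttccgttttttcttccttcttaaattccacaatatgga

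The *ASN1* window holds a G-box 167 bases and a TATCCA element 101 bases before the start. Both strands were searched, and none of the letters searched contains another. CACGTG, the core bound by many bZIP factors, was in 1 of the 9 windows against 6.49% of 27438 windows of the same length. TATCCA, an element known from sugar-starvation promoters of rice, was in 4 of 9 (*ASN1*, *bZIP1*, *TPS10* and *TPS11*) against 13.6%. The CGCG form of the CAMTA core was in 2 of 9 (*TPS8* and *TPS11*) against 10.1%. The study gives this core as CGyG, where y is C or T, and windows with the CGTG form were not counted. CGTG lies within CACGTG, so the *ASN1* window holds that form. ACTCAT, an element described for S1-group bZIP targets such as proline dehydrogenase, was in 0 of 9 against 12.3%. These matches are a description of the letters in these windows.

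The libraries held 22769687 to 26303024 gene counts, and 19167 genes were counted deeply enough to be tested, among them 8 of the 9 genes. *CAMTA3* (AT2G22300) itself was similar in both genotypes, with a log2 fold change (log2FC, *camta3-D* minus wild type) of 0.063 after flg22, -0.34 after AvrRpm1 and 0.070 after AvrRps4 (edgeR adjusted p = 0.847, 0.306 and 0.841). The mutation changes the protein, so this level does not check the labels. Summed leaf mesophyll markers were high in all libraries, from 27770 to 58240 CPM, and root markers summed to at most 0.362 CPM with the iron transporter gene *IRT1* at 0. Within each treatment the mesophyll sum was higher in *camta3-D*, with no overlap. It was 44085 to 48129 CPM in wild type and 53774 to 58240 CPM in *camta3-D* after flg22, 30127 to 30729 and 37454 to 40282 CPM after AvrRpm1, and 27770 to 32784 and 41355 to 43498 CPM after AvrRps4. Its part in the genotype differences below was not tested, and fewer cells of a type and less RNA per cell cannot be told apart in leaf discs.

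*bZIP1*, an S1-group bZIP factor, was listed at 0 counts in all 12 libraries. The same held for the other 4 S1-group genes, *bZIP2*, *bZIP11*, *bZIP44* and *bZIP53*, and for the 5 table entries whose locus numbers lie next to theirs (AT5G49448, AT2G18162, AT4G34588, AT1G75388 and AT3G62422). A 0 throughout was not rare, as 8473 of the 32678 genes had it, and here it fell on all 5 genes of the S1 group. Reads that matched more than 1 gene were set aside as ambiguous, 0.428 to 0.617% of all counted lines in each library. Whether the S1-group transcripts were lost there was not tested. The table therefore gives no level for *bZIP1*, and nothing about its abundance follows from the 0.

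*ASN1* spanned 27.3-fold between the highest and the lowest group mean. The highest, *camta3-D* after AvrRps4, is the group behind the choice of the set. Without it the span was 5.57-fold, from *camta3-D* after AvrRpm1 to *camta3-D* after flg22. After flg22 it was at 86.1 and 70.2 CPM in the wild-type libraries and at 119 and 144 CPM in the *camta3-D* libraries. After AvrRpm1 it was at 35.6 and 35.7 CPM in wild type and at 25.6 and 21.6 CPM in *camta3-D*. After AvrRps4 it was at 115 and 75.1 CPM in wild type and at 855 and 435 CPM in *camta3-D*. The AvrRps4 *camta3-D* libraries stood far above the other 10, although they differed by 1.97-fold from each other, and the AvrRpm1 libraries were the lowest in both genotypes. In the order of the 6 group means, only wild type after AvrRps4 (95.0 ± 28.3 CPM) and wild type after flg22 (78.1 ± 11.3 CPM) had overlapping replicates. The gene lies on chromosome 3 at 17437840 to 17441431, and overlaps an antisense gene, AT3G47341, by 11 bases. The library kit keeps no strand, so reads in such an overlap cannot be assigned to either gene.

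*BCAT2*, a branched-chain amino acid aminotransferase that takes part in the breakdown of leucine, isoleucine and valine, spanned 42.1-fold but rested on few reads after flg22. After flg22 it was at 1.98 and 2.18 CPM in wild type and at 1.17 and 6.58 CPM in *camta3-D*. After AvrRpm1 it was at 13.3 and 27.1 CPM in wild type and at 6.35 and 20.7 CPM in *camta3-D*. After AvrRps4 it was at 69.6 and 26.6 CPM in wild type and at 113 and 62.2 CPM in *camta3-D*. The genotypes overlapped in every treatment, and each pair of neighbours in the order of group means overlapped too. *BCAT2* shares 161 annotated bases with AT1G10090 on the opposite strand.

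*SEN1*, also known as *DIN1*, is a dark-induced and senescence-associated gene for a plastid rhodanese-like protein. After flg22 it was at 94.0 and 73.9 CPM in wild type and at 117 and 190 CPM in *camta3-D*. After AvrRpm1 it was at 186 and 247 CPM in wild type and at 92.7 and 102 CPM in *camta3-D*. After AvrRps4 it was at 473 and 348 CPM in wild type and at 850 and 814 CPM in *camta3-D*. The genotypes did not overlap in any treatment, with *camta3-D* above wild type after flg22 and AvrRps4 and below it after AvrRpm1. *DIN10*, a member of the raffinose synthase family, spanned only 2.84-fold, from 798 ± 335 CPM in *camta3-D* after AvrRps4 to 2270 ± 792 CPM in *camta3-D* after flg22. It shares 82 annotated bases with an antisense gene, AT5G20260.

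The 4 *TPS* genes had narrower ranges than *ASN1*, though *TPS11* came near the 5.57-fold of *ASN1* without the group behind the choice. *TPS8* spanned 1.5-fold, with all libraries between 87.0 and 171 CPM, and *TPS9* 1.74-fold, with all libraries between 26.6 and 73.9 CPM. *TPS10* was at 121 and 84.3 CPM in wild type after flg22, at 166 and 284 CPM in *camta3-D* after flg22, and between 214 and 290 CPM in the other 8 libraries. The wild-type flg22 libraries were thus the lowest 2 of the 12. *TPS11* spanned 4.93-fold. After flg22 it was at 538 and 481 CPM in wild type and at 664 and 924 CPM in *camta3-D*. After AvrRpm1 it was at 167 and 155 CPM in wild type and at 220 and 201 CPM in *camta3-D*, and after AvrRps4 at 231 and 262 and at 292 and 304 CPM. Replicates overlapped for no pair of neighbours in the order of its 6 group means, with *camta3-D* above wild type in each treatment.

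**Figure D1:**
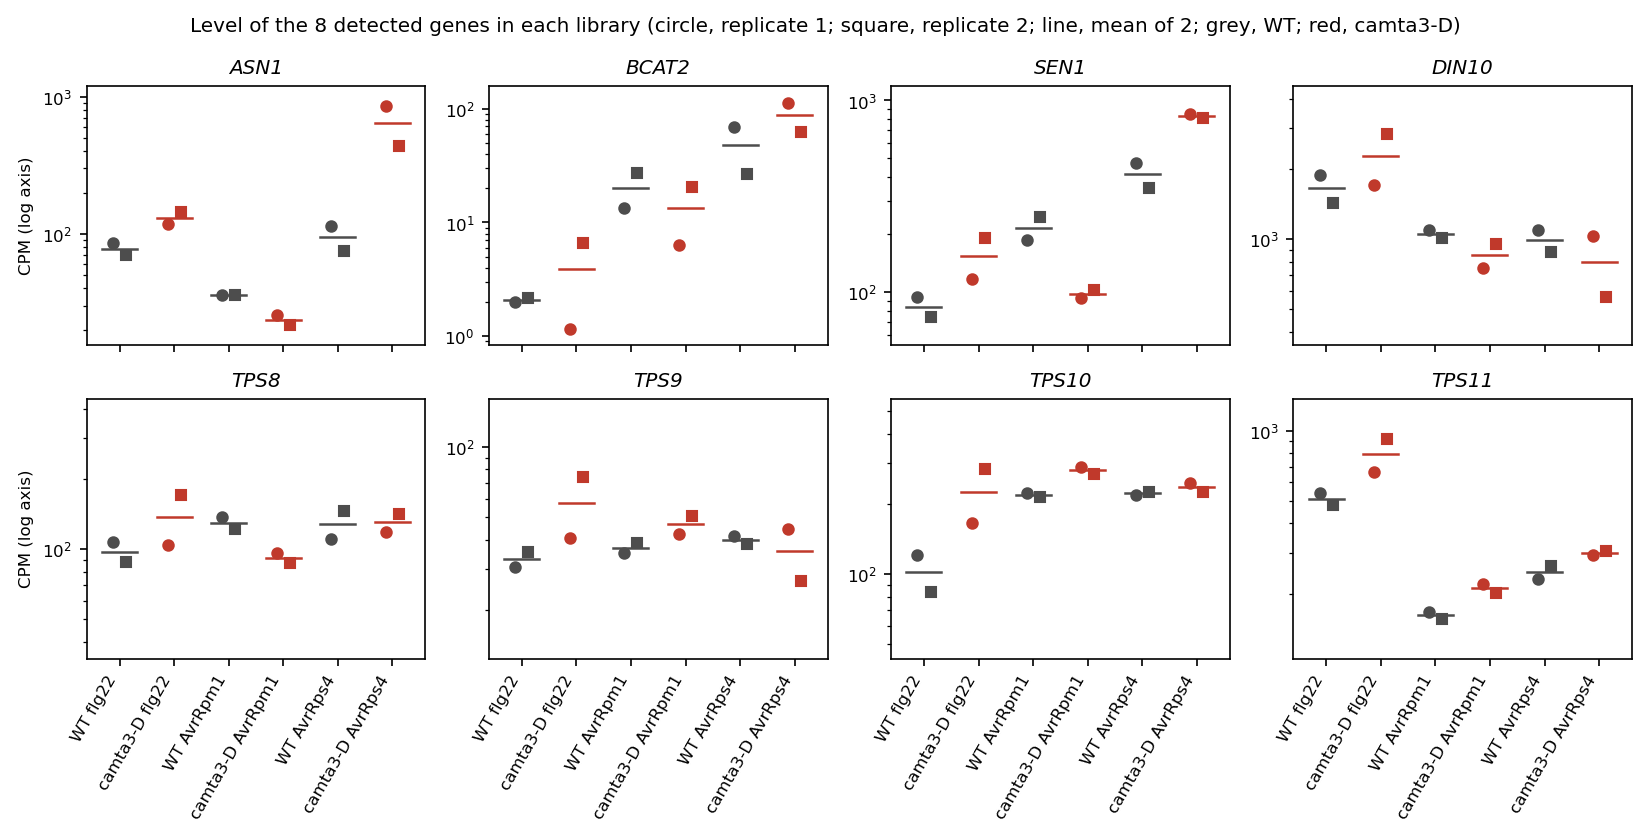
Level of *ASN1*, *BCAT2*, *SEN1*, *DIN10* and *TPS8* to *TPS11* in each of the 12 libraries, in CPM on a log axis, with circles for replicate 1, squares for replicate 2 and lines for the mean of 2 (grey, wild type; red, *camta3-D*). *ASN1* reached 855 and 435 CPM in *camta3-D* after AvrRps4 and 25.6 and 21.6 CPM in *camta3-D* after AvrRpm1.

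Per kilobase of exon, which allows genes to be compared, *DIN10* was the most abundant of the set in wild type after flg22, at 531 ± 103 CPM per kilobase. *TPS11* followed at 173 ± 13.7 and *SEN1* at 64.7 ± 10.9 CPM per kilobase. *TPS8*, *ASN1* and *TPS10* were close together at 29.1 ± 3.99, 28.4 ± 4.10 and 23.5 ± 5.92 CPM per kilobase. *TPS9* at 11.1 ± 1.11 and *BCAT2* at 1.19 ± 0.0785 CPM per kilobase were the least abundant. In wild type after AvrRpm1 the same scale gave *DIN10* 336 ± 19.1, *SEN1* 167 ± 33.1 and *ASN1* 13.0 ± 0.0238 CPM per kilobase.

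The first tested question was whether *camta3-D* altered these genes 1 h after flg22. *SEN1*, *TPS10* and *TPS11* were higher in *camta3-D* and none was lower, 3 of the 8 genes tested against 5.21% of all genes called higher and 5.59% called lower. *TPS10* rose most, with a log2FC of 1.13 ± 0.23 (SE, edgeR adjusted p = 0.0183), from 103 ± 25.8 to 225 ± 83.7 CPM. *SEN1* had a log2FC of 0.87 ± 0.24 (adjusted p = 0.0492) and *TPS11* of 0.64 ± 0.16 (adjusted p = 0.0317). *ASN1* itself did not pass the threshold, at 0.75 ± 0.30 (adjusted p = 0.130), and was called under 1 of 6 other settings. *TPS9* at 0.80, *BCAT2* at 0.90, *TPS8* at 0.49 and *DIN10* at 0.45 did not pass either (adjusted p = 0.0986, 0.578, 0.187 and 0.369). All 8 log2FC were positive, with a median of 0.77, while the median over all genes was 0.045 and 54.3% of all genes were positive.

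The flg22 calls changed with single libraries. Replicate 2 of *camta3-D* was above replicate 1 for 8 of 8 genes, by a median of 0.72 on the log2 scale, whereas it was above for 54.3% of all genes, by a median of 0.030. Without it the log2FC fell to 0.67 for *TPS10* (adjusted p = 0.0938), 0.46 for *SEN1* (adjusted p = 0.298) and 0.36 for *TPS11* (adjusted p = 0.184). Without wild-type replicate 2 none of the 3 was called either (adjusted p = 0.129, 0.263 and 0.187), and without wild-type replicate 1 only *TPS10* was (adjusted p = 0.0297, against 0.0937 for *SEN1* and 0.0813 for *TPS11*). Without *camta3-D* replicate 1 all 3 remained, at adjusted p = 0.0174, 0.0367 and 0.0254, and *TPS9* was called as well (1.14, adjusted p = 0.0475). When the 4 flg22 libraries were fitted alone, *TPS10*, *SEN1* and *TPS11* missed the threshold (adjusted p = 0.0629, 0.0807 and 0.0747) and *ASN1* passed it (adjusted p = 0.0404). *SEN1* was called under 3 of 6 other settings against 5 of 6 for *TPS10* and *TPS11*, and it missed the threshold with median-ratio size factors (adjusted p = 0.0516).

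After AvrRpm1, recognized in the plant through the receptor RPM1, the only gene of the set that differed by genotype was *SEN1*, which was lower in *camta3-D*. Its log2FC was -1.15 ± 0.24 (edgeR adjusted p = 0.0308), from 216 ± 43.0 CPM in wild type to 97.6 ± 6.93 CPM. That is 1 of 8 genes lower and 0 higher, against 3.41% and 1.12% of all genes. *ASN1* had a log2FC of -0.60 ± 0.30 (adjusted p = 0.307). *TPS8* had -0.50 (adjusted p = 0.255), *DIN10* -0.30 (adjusted p = 0.650) and *BCAT2* -0.59 (adjusted p = 0.705). *TPS9*, *TPS10* and *TPS11* had 0.34, 0.35 and 0.39 (adjusted p = 0.561, 0.445 and 0.206). Leaving out any 1 of the 4 libraries kept the direction of *SEN1* but not the call. Its log2FC was -1.34 and -0.93 when wild-type replicates 1 and 2 were dropped in turn, and -1.08 and -1.22 when *camta3-D* replicates 1 and 2 were (adjusted p = 0.0831, 0.119, 0.141 and 0.0851), and the 4 AvrRpm1 libraries fitted alone gave -1.16 (adjusted p = 0.0713).

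The genotype difference itself differed between the treatments for *SEN1*. The difference after AvrRpm1 minus that after flg22 was -2.02 ± 0.35 on the log2 scale (edgeR interaction test, adjusted p = 0.0454). It was the only gene of the set so called, 1 of 8 lower against 0.386% of all genes, and 0 of 8 higher against 0.177%. *ASN1* had -1.35 ± 0.42 (adjusted p = 0.166), and the remaining 6 lay between -1.49 for *BCAT2* and -0.26 for *TPS11*. All 8 were negative, with a median of -0.89 against -0.029 over all genes, of which 47.0% were positive. The 8 values share the same libraries. Among these is *camta3-D* flg22 replicate 2, which was above replicate 1 for 8 of 8 genes and so lowers each of the differences. The *SEN1* call was kept only in the fit without *camta3-D* flg22 replicate 1 (adjusted p = 0.0459). It was lost in the 7 fits that each left out another library. These were, for wild type, AvrRpm1 replicates 1 and 2 (adjusted p = 0.107 and 0.0950) and flg22 replicates 1 and 2 (0.0845 and 0.149), and for *camta3-D*, AvrRpm1 replicates 1 and 2 (0.0641 and 0.105) and flg22 replicate 2 (0.122), with values from -2.21 to -1.61. It was also lost when only the flg22 and AvrRpm1 libraries were fitted (-2.00, adjusted p = 0.106), and under 4 of 6 other settings it held.

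**Figure D2:**
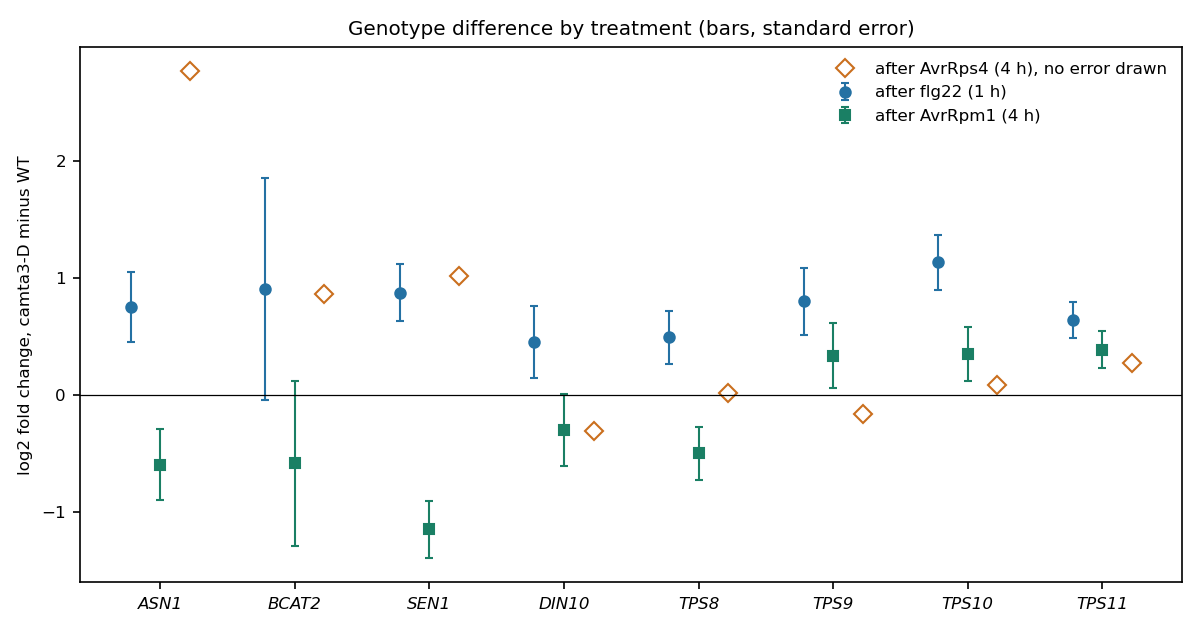
Genotype difference as log2FC (*camta3-D* minus wild type) for the 8 genes after flg22 (blue circles), AvrRpm1 (green squares) and AvrRps4 (open diamonds), with SE for the tested treatments. *SEN1* lay at 0.87 after flg22, at -1.15 after AvrRpm1 and at 1.02 after AvrRps4, and *ASN1* at 0.75, -0.60 and 2.76.

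After AvrRps4, recognized through the receptor pair RPS4 and RRS1, *ASN1* showed the difference for which the set was chosen, a log2FC of 2.76. *SEN1* followed at 1.02 and *BCAT2* at 0.86, while *TPS11* was at 0.27, *TPS10* at 0.084, *TPS8* at 0.020, *TPS9* at -0.16 and *DIN10* at -0.31. No test is given for these values, and they are set against no background. Over the left-out libraries *ASN1* had its lowest value, 2.19, in the fit that dropped *camta3-D* replicate 1 and its highest, 3.16, in the fit that dropped replicate 2.

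Levels were also compared between AvrRpm1 at 4 h and flg22 at 1 h within each genotype, where elicitor and time cannot be told apart. In wild type, *SEN1*, *BCAT2* and *TPS10* were higher after AvrRpm1 and *ASN1* and *TPS11* were lower. That is 3 and 2 of 8 genes, against 34.8% of all genes higher and 32% lower. *BCAT2* had a log2FC of 3.28 ± 0.85, *SEN1* of 1.36 ± 0.25 and *TPS10* of 1.09 ± 0.23 (edgeR adjusted p = 0.00652, 7.21e-04 and 0.00210). *ASN1* had -1.13 ± 0.30 and *TPS11* -1.66 ± 0.16 (adjusted p = 0.00711 and 9.98e-06). *ASN1* and *SEN1*, which are both dark-induced, thus changed in opposite directions in these leaves. *DIN10* had -0.66, *TPS8* 0.41 and *TPS9* 0.16 (adjusted p = 0.0817, 0.133 and 0.628).

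In *camta3-D* no gene of the set was higher after AvrRpm1 than after flg22 and 5 were lower, against 31.6% and 29.8% of all genes. *ASN1* fell by 2.48 ± 0.31 on the log2 scale, *TPS11* by 1.92 ± 0.16 and *DIN10* by 1.41 ± 0.31 (edgeR adjusted p = 7.87e-05, 5.27e-06 and 0.00297). *SEN1* at -0.66 ± 0.24 and *TPS8* at -0.58 ± 0.23 were near the threshold (adjusted p = 0.0386 and 0.0465). Without *camta3-D* flg22 replicate 2 they were at -0.27 and -0.18 (adjusted p = 0.362 and 0.470), and both were also uncalled without *camta3-D* AvrRpm1 replicate 1 (-0.58 and -0.65, adjusted p = 0.147 and 0.0882) or replicate 2 (-0.73 and -0.51, adjusted p = 0.0757 and 0.164). *BCAT2* had 1.79, *TPS10* 0.31 and *TPS9* -0.30 (adjusted p = 0.0763, 0.263 and 0.375). *BCAT2* and *TPS10* were called higher when flg22 replicate 2 was dropped (3.52 and 0.75, adjusted p = 0.0274 and 0.0124), and *BCAT2* also when AvrRpm1 replicate 1 was (2.41, adjusted p = 0.0288).

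**Figure D3:**
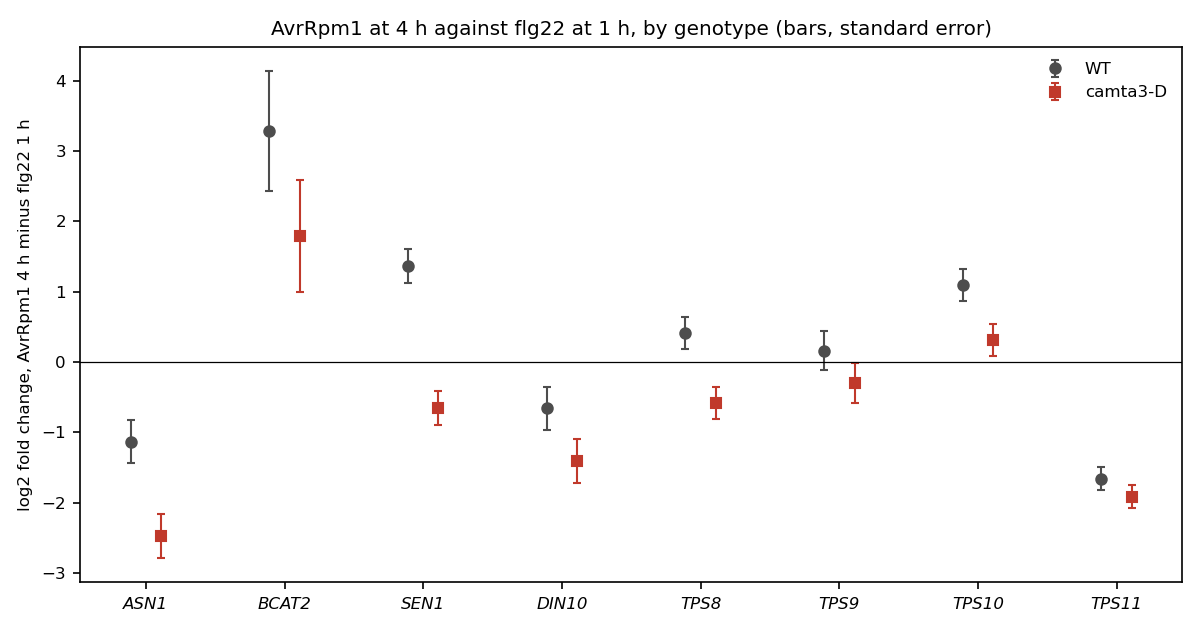
Difference between AvrRpm1 at 4 h and flg22 at 1 h as log2FC with SE, in wild type (grey circles) and *camta3-D* (red squares). *ASN1* lay at -1.13 and -2.48, *SEN1* at 1.36 and -0.66, and *TPS11* at -1.66 and -1.92.

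Between the 2 bacterial strains at 4 h, *ASN1* was higher with AvrRps4 in both genotypes, by a log2FC of 1.41 in wild type and 4.77 in *camta3-D*. *SEN1* was higher by 0.93 and 3.09 and *BCAT2* by 1.25 and 2.70, and *TPS11* by 0.61 and 0.50. *DIN10* differed little, at -0.084 and -0.095. These contrasts contain the libraries that led to the choice of *ASN1* and carry no test here. Clock genes, whose levels follow the time of day, also differed between the strains. *ELF4*, an evening gene, was at 47.7 ± 5.59 CPM with AvrRpm1 and 17.7 ± 4.67 CPM with AvrRps4 in wild type, and at 46.7 ± 3.99 and 19.0 ± 5.69 CPM in *camta3-D* (edgeR adjusted p = 0.0206 and 0.00797). *PRR9*, a morning gene, was at 2.78 ± 0.731 and 8.03 ± 3.14 CPM in wild type and at 1.46 ± 0.454 and 10.5 ± 2.21 CPM in *camta3-D* (adjusted p = 0.0322 and 0.00117). Of the 10 clock genes, 1 was higher and 1 lower with AvrRps4 in wild type, and 3 were higher and 2 lower in *camta3-D*, against 2.17%, 1.58%, 12.4% and 10.5% of all genes. The part of the clock in the strain differences of *ASN1* and *SEN1* was not tested. Between genotypes after AvrRps4, 0 of the 10 clock genes were called, with a median log2FC of 0.12.

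The wider starvation programme was described with lists of other genes from the same pathways. Of 14 other starvation and dark-induced genes tested, 1 was higher in *camta3-D* after flg22, AT3G15450, which went from 511 ± 46.6 to 838 ± 225 CPM (log2FC 0.71 ± 0.17, edgeR adjusted p = 0.0293). None was lower, and of all genes 5.21% were called higher and 5.59% lower. After AvrRpm1 1 was lower, *J8*, a chloroplast DnaJ-type protein gene, which went from 887 ± 43.8 to 545 ± 23.4 CPM (log2FC -0.70 ± 0.16, adjusted p = 0.0373). None was higher, against 3.41% of all genes called lower and 1.12% higher. After AvrRps4 4 were higher and 0 lower, against 2.49% and 2.44% of all genes, led by *KINB1*, a SnRK1 beta subunit gene, with a log2FC of 0.65 ± 0.14 (adjusted p = 0.0347), and *J8* with 0.68 ± 0.16 (adjusted p = 0.0425). In that treatment 10 of the 14 log2FC were positive and 4 negative. The largest change was a fall of *DIN11*, which was not called, from 9.98 ± 7.15 to 0.764 ± 0.108 CPM (log2FC -3.70 ± 0.93, edgeR adjusted p = 0.0521). The AvrRps4 libraries are those behind the choice of *ASN1*, and the lists were chosen with earlier results known. Counts and p-values after AvrRps4, here and for the lists below, are thus a description and no independent support for a wider programme. The list medians were 0.39, -0.25 and 0.52 after flg22, AvrRpm1 and AvrRps4, beside 0.045, 0.012 and -0.0021 over all genes. The sum of the list went the same way, since after AvrRpm1 it was 4817 to 4827 CPM in wild type and 3638 to 3713 CPM in *camta3-D*, and after AvrRps4 4406 to 4800 and 5968 to 6040 CPM.

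Amino acid breakdown genes other than *BCAT2* were rarely called after flg22 and AvrRpm1. After flg22 1 of 17 was higher, *MCCA*, a subunit of the leucine-degrading methylcrotonyl-CoA carboxylase, at 45.4 ± 0.944 and 85.8 ± 24.5 CPM (log2FC 0.92 ± 0.23, edgeR adjusted p = 0.0333). That is close to the 5.21% of all genes called higher. Another, *BCAT1*, was lower, against 5.59% of all genes, at 52.1 ± 2.23 and 27.7 ± 3.79 CPM (log2FC -0.91 ± 0.14, adjusted p = 0.00671). After AvrRpm1 0 of 17 were called. After AvrRps4 5 were higher and 0 lower, against 2.49% and 2.44% of all genes, with *MCCA* at 119 ± 13.1 and 263 ± 68.5 CPM (log2FC 1.15 ± 0.23, adjusted p = 0.0265) and *E1B1*, a subunit of the branched-chain keto acid dehydrogenase, at 9.13 ± 0.0110 and 15.6 ± 3.06 CPM (log2FC 0.78 ± 0.16, adjusted p = 0.0293). These 5 again come from the libraries behind the choice of *ASN1*. The list medians were 0.24, -0.041 and 0.49.

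Nitrogen genes around asparagine gave a mixed picture. The cytosolic glutamine synthetase gene *GLN1;1* was lower in *camta3-D* after flg22, from 848 ± 20.1 to 390 ± 22.7 CPM (log2FC -1.12 ± 0.18, edgeR adjusted p = 0.00869), and after AvrRps4, from 318 ± 26.5 to 129 ± 20.8 CPM (log2FC -1.31 ± 0.18, adjusted p = 0.00842). *GLN1;2* was lower after AvrRpm1, from 151 ± 19.1 to 99.1 ± 12.6 CPM (log2FC -0.61 ± 0.14, adjusted p = 0.0419). The glutamate dehydrogenase gene *GDH1*, which is also among the starvation genes above, was higher after AvrRps4, from 137 ± 13.0 to 233 ± 63.8 CPM (log2FC 0.77 ± 0.19, adjusted p = 0.0475). No other of the 12 genes, which include *ASN2* and *ASN3*, was called between genotypes in these treatments. Of all genes 5.59%, 3.41% and 2.44% were called lower after flg22, AvrRpm1 and AvrRps4, and 2.49% were called higher after AvrRps4.

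After flg22 *camta3-D* leaves had 5 of 14 starch breakdown genes higher than wild type and 0 lower, against 5.21% and 5.59% of all genes. *PHS1*, a plastid glucan phosphorylase gene, went from 230 ± 26.6 to 334 ± 6.23 CPM (log2FC 0.54 ± 0.12, edgeR adjusted p = 0.0276). *BAM3*, a chloroplast beta-amylase gene, went from 216 ± 21.7 to 420 ± 131 CPM (log2FC 0.96 ± 0.23, adjusted p = 0.0293). All 14 had positive log2FC, with a median of 0.51, as had 54.3% of all genes. After AvrRpm1 0 of 14 were called, and after AvrRps4 1 was higher, *BAM4*, at 33.3 ± 1.47 and 58.5 ± 4.34 CPM (log2FC 0.81 ± 0.11, adjusted p = 0.00816). In the latter treatment 2.49% of all genes were called higher. Positive log2FC were also found for 9 of 14 after AvrRpm1 (median 0.031) and for 14 of 14 after AvrRps4 (median 0.33). Of all genes 51.7% and 49.7% were positive in these treatments.

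Other trehalose genes were called in small numbers in both directions. Of 12 tested, 2 were higher after flg22. After AvrRpm1 1 was higher and 1 lower, and after AvrRps4 1 was higher and 1 lower. Of all genes 5.21%, 1.12% and 2.49% were called higher in these treatments and 5.59%, 3.41% and 2.44% lower. *TPPH*, a trehalose-6-phosphate phosphatase gene, was higher in *camta3-D* after flg22, at 1.54 ± 0.219 and 4.11 ± 0.925 CPM, and after AvrRpm1, at 6.92 ± 0.967 and 14.0 ± 1.32 CPM (log2FC 1.42 ± 0.24 and 1.01 ± 0.19, edgeR adjusted p = 0.00960 and 0.0185). *TPPA* was the only other of 12 called after flg22 (log2FC 0.71 ± 0.18, adjusted p = 0.0359). *TPPD*, with 0.462 ± 0.0963 CPM or less, was lower after AvrRpm1 and AvrRps4 (adjusted p = 0.0442 and 0.0348). *TPS6* was higher after AvrRps4, at 54.2 ± 3.22 and 77.3 ± 6.65 CPM (log2FC 0.51 ± 0.11, adjusted p = 0.0335).

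Besides *KINB1*, which was counted with the starvation genes, 6 other SnRK1 subunit genes and the 4 measured group C bZIP genes (*bZIP9*, *bZIP10*, *bZIP25* and *bZIP63*) were tested. None of these 10 was called between genotypes in any of the 3 treatments, and their list medians lay between -0.077 and -0.019. Between AvrRpm1 at 4 h and flg22 at 1 h, 3 of the 6 subunit genes were higher and 1 lower, and 1 of the 4 bZIP genes was higher and 2 lower, with these counts in each genotype, against 34.8% higher and 32% lower of all genes in wild type and 31.6% and 29.8% in *camta3-D*. *KING1*, a gamma-type subunit gene, went from 31.4 ± 2.1 to 145 ± 7.87 CPM in wild type and from 36.2 ± 6.53 to 123 ± 2.48 CPM in *camta3-D* (log2FC 2.21 ± 0.13 and 1.76 ± 0.13, edgeR adjusted p = 5.66e-07 and 2.35e-06). *bZIP25* went from 146 ± 3.92 to 48.3 ± 0.835 CPM and from 125 ± 6.36 to 43.2 ± 7.57 CPM (log2FC -1.59 ± 0.12 and -1.53 ± 0.12, adjusted p = 2.23e-06 and 3.70e-06).

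Genes that sugar induces were measured as a counterpart. Of 7 tested, *GPT2*, a plastid glucose-6-phosphate transporter gene, was lower in *camta3-D* after flg22, at 105 ± 20.1 and 40.5 ± 3.92 CPM (log2FC -1.38 ± 0.34, edgeR adjusted p = 0.0331). *CHS*, the chalcone synthase gene of flavonoid synthesis, was higher after AvrRpm1, at 5.55 ± 1.41 and 17.5 ± 0.262 CPM, and after AvrRps4, at 3.10 ± 0.207 and 10.7 ± 3.05 CPM (log2FC 1.65 ± 0.32 and 1.79 ± 0.34, adjusted p = 0.0210 and 0.0233). Of all genes 5.59% were called lower after flg22, and 1.12% and 2.49% were called higher after AvrRpm1 and AvrRps4. The list medians were 0.32, 1.07 and -0.42 after flg22, AvrRpm1 and AvrRps4, beside 0.045, 0.012 and -0.0021 over all genes. After AvrRpm1 4 were positive and 3 negative, and the list sum was 649 to 786 CPM in wild type and 1446 to 2113 CPM in *camta3-D*. The sum overlapped between genotypes in the other treatments. Of 12 sugar carrier and sucrose-cleaving genes 1 was called between genotypes, the sucrose carrier gene *SUC1*, which was lower after AvrRps4 (log2FC -1.25 ± 0.27, adjusted p = 0.0348). In that treatment 2.44% of all genes were called lower. None of the lists outside the set held a gene whose genotype difference differed between AvrRpm1 and flg22.

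Between AvrRpm1 at 4 h and flg22 at 1 h the same lists moved widely, as did the transcriptome, in which 34.8% of all genes were higher and 32% lower in wild type and 31.6% and 29.8% in *camta3-D*. In wild type 10 of 14 other starvation genes were higher and 2 lower, and in *camta3-D* 7 and 2. *DRM2*, a dormancy-associated gene, went from 237 ± 4.27 to 1274 ± 66.2 CPM in wild type (log2FC 2.42 ± 0.17, edgeR adjusted p = 1.46e-06), whereas *DIN11*, another dark-induced gene, went from 55.1 ± 4.10 to 4.62 ± 2.42 CPM (log2FC -3.57 ± 0.74, adjusted p = 0.00172). Amino acid breakdown genes were split, with 11 higher and 4 lower of 17 in wild type and 6 and 5 in *camta3-D*, the latter near the shares of all genes. *PRODH2*, a proline dehydrogenase gene, went from 83.6 ± 13.9 to 2.62 ± 0.403 CPM in wild type (log2FC -4.99 ± 0.26, adjusted p = 3.14e-07). Starch breakdown genes were 9 higher and 2 lower of 14 in wild type and 5 and 2 in *camta3-D*. The hexose carrier gene *STP4* went from 649 ± 39.1 to 113 ± 12.1 CPM in wild type (log2FC -2.52 ± 0.20, adjusted p = 2.65e-06).

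Markers of other programmes moved with the contrasts in part. Of 7 senescence genes tested, *SAG101* was lower in *camta3-D* after flg22 (log2FC -0.54 ± 0.15, edgeR adjusted p = 0.0446) and *NAP*, a senescence NAC factor gene, after AvrRpm1, from 50.3 ± 4.51 to 15.0 ± 0.369 CPM (log2FC -1.75 ± 0.16, adjusted p = 8.06e-04). *NAP* was thus lower beside *SEN1* after AvrRpm1. Each was the only senescence gene called in its treatment, against 5.59% of all genes lower after flg22 and 3.41% after AvrRpm1, where *SAG101* and *NAP* are meant. *SAG12*, the classical marker of age-related senescence, was at 0 in all libraries. The clock gene *GI* was higher after flg22, from 55.2 ± 6.96 to 84.2 ± 13.4 CPM (log2FC 0.61 ± 0.15, adjusted p = 0.0319), and the other 9 clock genes were not called. That is 1 of 10, against 5.21% of all genes called higher. The guard cell marker sum was lower in *camta3-D* in every treatment, without overlap. It was 33.5 to 38.4 CPM in wild type and 18.9 to 21.9 CPM in *camta3-D* after flg22, 47.6 to 48.2 and 31.1 to 41.8 CPM after AvrRpm1, and 42.3 to 52.6 and 35.7 to 39.9 CPM after AvrRps4. By marker, 4 of 4 had a negative log2FC after flg22 and 3 of 4 after AvrRpm1 and after AvrRps4. The exceptions were *MYB60* after AvrRpm1 (9.22 and 9.92 CPM) and *SLAC1* after AvrRps4 (4.37 and 4.82 CPM). The phloem companion cell sum was 470 to 541 CPM in wild type and 614 to 643 CPM in *camta3-D* after flg22. It overlapped between genotypes after AvrRpm1 (410 to 475 and 424 to 454 CPM) and AvrRps4 (403 to 510 and 404 to 461 CPM). The epidermis sum overlapped between genotypes in every treatment. The part of these in the member differences was not tested.

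Across the 12 libraries the members did not share a single pattern. Correlations of log2 CPM are given as a description, since the libraries fall into 6 groups and include those behind the choice of *ASN1*. *ASN1* was most like *SEN1* by Pearson's r (0.72), which ranked 391 among the 19166 other genes tested. By Spearman's rho the first place went to *TPS11* (0.67), ahead of *SEN1* (0.64). By Pearson's r *ASN1* was less like *TPS11* (r = 0.39), *TPS8* (r = 0.38) and *BCAT2* (r = 0.37), and unlike *DIN10* (r = 0.019), *TPS10* (r = -0.010) and *TPS9* (r = -0.097). The closest pairs within the set were *SEN1* with *BCAT2* (r = 0.86) and *DIN10* with *TPS11* (r = 0.76), and the most opposed was *DIN10* with *BCAT2* (r = -0.61).

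**Figure D4:**
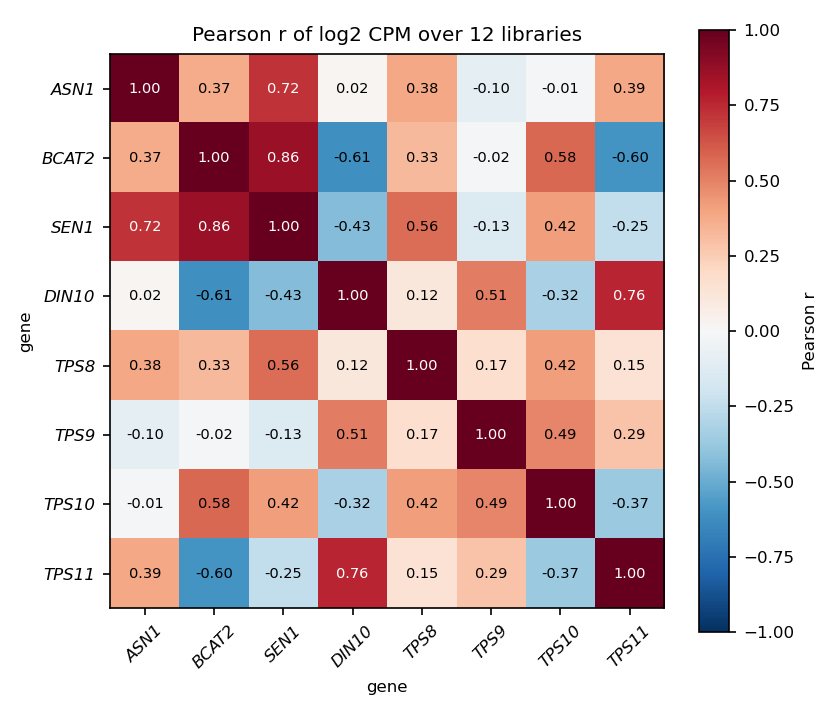
Pearson r of log2 CPM between the 8 detected genes over the 12 libraries, with the value printed in each cell and colour from blue (-1) to red (1). *SEN1* with *BCAT2* reached 0.86 and *DIN10* with *TPS11* 0.76, while *ASN1* with *DIN10* was 0.019.

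Outside the set, the 10 genes most like *ASN1* over the 12 libraries were *RCY1* (r = 0.96), AT3G06455, AT5G51410, *SR34*, *CID4*, *IAA30*, AT5G09880, AT3G57470, *SKIP* and AT5G42950 (r = 0.92). Their range was smaller than the 27.3-fold of *ASN1*, which includes the group behind the choice of the set. *RCY1* went from 25.3 CPM in *camta3-D* after AvrRpm1 to 46.8 CPM in *camta3-D* after AvrRps4, a 1.85-fold span, and 9 of the 10 spanned 1.35-fold to 2.91-fold. *IAA30* spanned 6.67-fold at 0.516 to 3.44 CPM. With other size factors 6 of the 10 stayed among the first 10, and with Spearman's rank correlation 3 did.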

How the data were processed

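RNA-seq libraries were made with the TruSeq v2 kit from polyadenylated RNA. Per the labels, the authors checked reads with FastQC 0.11.2, and the submitters' processing notes also name TopHat2 2.0.10, HTSeq and the build TAIR10. The deposited values are raw read counts per gene, in 1 table of 32678 genes and 12 libraries, with further lines that name no gene (5.66 to 10.8% of all lines) left out here. One library, *camta3-D* AvrRpm1 replicate 2, had 7.78% of lines from reads without a unique position, against at most 3.43% in the others.

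Counts were filtered with filterByExpr (minimum count 10), scaled by TMM and fitted with a mean per group over all 12 libraries (edgeR 4.0.16, R 4.3.3, quasi-likelihood test, 6 residual degrees of freedom, Benjamini-Hochberg adjustment over 19167 genes, threshold 0.05). Correlations used log2 CPM with a prior count of 2. The contrasts with AvrRps4 libraries carry no test for the 9 genes. The code was tested on simulated data with 200 changed genes. Alternatives were size factors by median ratio, DESeq2 1.42.0, no filter, the replicate number as a block, no organelle genes, fits of the compared libraries alone and each library left out.

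The genes and the 16 further lists were chosen with earlier results of these data known. Named genes are the 9 genes, at most 2 called genes per list and direction with the smallest p in each comparison, the 10 genes most correlated with *ASN1*, and *CAMTA3*. *ELF4*, *PRR9*, *IRT1* and *SAG12* were named after their values were seen, as were *DRM2*, *DIN11* and other examples from among those the rule allows. Coordinates and upstream sequences are from RefSeq TAIR10.1, matched by locus for 31912 genes.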

Additional observations from a re-analysis of the deposited data

Results flagged for a closer look

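The genotype difference of *SEN1* differed between the treatments by test. It was -2.02 on the log2 scale when the difference after flg22 was subtracted from that after AvrRpm1 (SE 0.35, edgeR adjusted p = 0.0454), with *camta3-D* above wild type in 2 of 2 libraries after flg22 and below it in 2 of 2 after AvrRpm1. The call held under 4 of 6 other settings and in 1 of 8 fits that each left out a library, while the direction was the same in all of them.

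*ASN1* and *SEN1* were flagged because both *camta3-D* libraries lay above both wild-type libraries after AvrRps4 and below them after AvrRpm1. For *ASN1* the part after AvrRps4 is the difference by which the set was chosen. The share of all genes with the same pattern is not given here. The log2FC after AvrRps4 was 2.76 for *ASN1* and 1.02 for *SEN1*, against -0.60 and -1.15 after AvrRpm1. These differences between the strains were not tested, because the AvrRps4 libraries were used to choose the set.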

How the results depend on the processing

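With the libraries of each comparison alone, 1 gene of the set was higher after flg22 and 0 were lower after AvrRpm1, 3 were lower in *camta3-D* between AvrRpm1 and flg22 and 0 had a genotype difference that differed. The numbers of all genes were then 285 higher after flg22, 22 higher and 86 lower after AvrRpm1, and 1 higher and 5 lower for the differing genotype effect. For *camta3-D* between AvrRpm1 and flg22 the main fit called 5 of the set and 29.8% of all genes lower. The share of all genes in that contrast under other settings is not given here. DESeq2 called 386 genes higher and 1114 lower after AvrRpm1 and 233 and 429 for the differing effect, with 2 of the set lower. Neither the labels nor the study tie a replicate number to a particular experiment, and same-numbered libraries did not deviate together (r from -0.18 to 0.098 over 15 pairs of groups, 0 over 0.1). With the replicate block 3 of the set were lower in *camta3-D* between AvrRpm1 and flg22, 0 had a differing genotype effect (*SEN1*, -2.01, adjusted p = 0.0777), and 0 and 7 of all genes did. *SEN1* after flg22 was also no longer called with the block (0.86, adjusted p = 0.0712). Of 240 values of the 8 genes under 6 other settings, 223 kept their direction and side of the threshold, 12 lost the call, 5 gained it and 0 changed sign. All 48 AvrRps4 values stayed within the spread between replicates.

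Leaving out each library gave these ranges. After flg22 0 to 4 of the set and 53 to 350 of all genes were higher, and 165 to 639 of all lower. After AvrRpm1 0 to 0 of the set were lower, and 20 to 136 of all higher and 114 to 665 lower. Between AvrRpm1 and flg22 in *camta3-D* the log2FC ran from -0.96 to -0.27 for *SEN1* and from -0.89 to -0.18 for *TPS8*. It ran from -2.61 to -2.34 for *ASN1*. The differing effect gave 0 to 1 of the set lower, and 0 to 129 of all higher and 0 to 58 lower. Values that changed sign, none of them called where the sign had turned, were *BCAT2* after flg22 (-0.85 to 1.63) and after AvrRpm1 (-1.67 to 0.035, with 0.015 when wild-type replicate 2 was dropped), *TPS9* (-0.67 to 0.19) and *TPS10* (-0.022 to 0.75) between AvrRpm1 and flg22 in *camta3-D*, and the differing effects of *BCAT2* (-2.57 to 0.26), *TPS9* (-0.80 to 0.057) and *TPS11* (-0.45 to 0.023). Dropping *camta3-D* flg22 replicate 2 turned the first, *TPS9* between AvrRpm1 and flg22, and the last 3. The causes were not tested. Groups of 2 libraries limit the precision of every value.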
